A study of Mus musculus with 12 samples.

Results

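IFN-γ is read by a short relay of receptor, kinase and transcription factor proteins. The count tables list 15002 genes. Of these, 8 genes of that relay or of neighbouring cytokine relays were followed here by their symbols. They are the receptor chains Ifngr1 and Ifngr2, the kinases Jak1, Jak2 and Tyk2, and the transcription factors Stat2, Stat3 and Stat6. All 8 were found, and all 8 passed the filter on low counts. The cells were IEC4.1, a line of mouse intestinal epithelial cells. They had been transfected for 24 h with a scrambled control siRNA (siR_Ctrl) or with a pool of 3 siRNA duplexes against the lncRNA Nostrill (siR_Nostrill, 40 nM of each), and were then left untreated or exposed to IFN-γ at 1 ng/ml for 4 h, the time and dose that a figure legend of the study gives, while the labels give 24 h for all libraries. Each of these 4 groups, written siR_Ctrl and siR_Nostrill where untreated and siR_Ctrl + IFN-γ and siR_Nostrill + IFN-γ where treated, held 3 libraries, which the methods call biological triplicates. Cells of all groups had thus been transfected with an siRNA, and a single cell line is compared throughout. Nostrill was not analysed here, so its level could not be used to check the siR_Nostrill label.

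Between 17824306 and 19093204 reads were counted per library. Counts of the 8 genes ran from 421 for Tyk2 in its lowest library to 6299 for Stat3 in its highest. Of 9 epithelial markers, 5 were not listed (Epcam and Cdh1 among them), Krt8, Krt18 and Vil1 stayed at or below 0.28 FPKM, and Krt19 was at 0.91 to 2.76 FPKM, most of the summed level of the list (1.2 to 3.0 FPKM). The 6 fibroblast markers summed to 370.4 to 654.1 FPKM. Medians were 215.81 FPKM for Col1a1, 156.04 for Col1a2, 60.43 for Col3a1, 17.03 for Dcn and 13.04 for Pdgfra. Only Lum was low, at 0.06 to 0.27 FPKM. The epithelial markers of the labelled cell type were thus not listed or low in all 4 groups. Leukocyte markers summed to at most 2.6 FPKM. The libraries also differed in how much of their reads fell on long genes. The FPKM (reads scaled for transcript length and library size) of all genes summed to between 570935 and 794809 in a library. In siR_Ctrl cells replicate 1 had the lowest sum, and in siR_Ctrl + IFN-γ cells replicate 3 did (634933). Those 2 libraries gave the highest values of Jak1, Jak2, Tyk2, Stat3 and Stat6 in their groups. So did siR_Nostrill replicate 3, which had the lowest sum of its group (681211). In siR_Nostrill + IFN-γ cells replicate 1 had the lowest sum (647111). Of these genes it was highest only for Stat3 and Stat6, and it was lowest for Tyk2. The part of this spread in the results below was tested only by removing the trend with length, and the values are given where that changed a call.

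IFN-γ binds a receptor of 2 kinds of chain. Ifngr1 binds the ligand and carries Jak1, and Ifngr2 joins the complex and carries Jak2. The active kinases phosphorylate the receptor and then STAT proteins, which pair up, enter the nucleus and turn on target genes. Stat2 and Tyk2 belong mainly to the neighbouring type I and type III interferon relay, in which Stat2 works with Irf9 on interferon-stimulated response elements. Stat3 is best known downstream of gp130 cytokines such as interleukin-6, and Stat6 downstream of interleukin-4 and interleukin-13.

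The promoters of the 4 members that were called in a comparison are shown to set their sequences beside their responses. All come from RefSeq (GRCm38.p6), in which each of the 8 genes had 1 promoter entry, and are written 5′ to 3′ on the strand of the gene. The search covered the 250 bases before the annotated start. Capitals mark matches to TTCNNNGAA, the core of a STAT site, to TTCNNNNGAA, the form with a wider gap, to GAAANNGAAA or its reverse TTTCNNTTTC, the core of an interferon-stimulated response element, and to GGGCGG or its reverse CCGCCC, a GC box. The first 2 motifs read the same on both strands. For Stat2, 30 bases are shown, starting 226 bases before the start, because the window lies within the span of the gene Apof. For Stat3, the bases outside the gene's own span are shown.
Stat2, chr10:128270272-128270301, + strand: ctggTTTCAGTTTCctTTCCCTAGAActca
Stat3, chr11:100939595-100939790, − strand: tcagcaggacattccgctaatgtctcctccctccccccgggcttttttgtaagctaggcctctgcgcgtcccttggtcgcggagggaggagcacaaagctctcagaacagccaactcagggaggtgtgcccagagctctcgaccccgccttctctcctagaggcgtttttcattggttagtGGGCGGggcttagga
Jak2, chr19:29251553-29251802, + strand: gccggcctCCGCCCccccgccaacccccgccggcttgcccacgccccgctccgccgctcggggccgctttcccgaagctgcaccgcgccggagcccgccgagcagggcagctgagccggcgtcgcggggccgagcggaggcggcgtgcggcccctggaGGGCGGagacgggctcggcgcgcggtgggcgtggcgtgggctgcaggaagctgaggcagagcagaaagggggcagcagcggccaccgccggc
Ifngr2, chr16:91546809-91547058, + strand: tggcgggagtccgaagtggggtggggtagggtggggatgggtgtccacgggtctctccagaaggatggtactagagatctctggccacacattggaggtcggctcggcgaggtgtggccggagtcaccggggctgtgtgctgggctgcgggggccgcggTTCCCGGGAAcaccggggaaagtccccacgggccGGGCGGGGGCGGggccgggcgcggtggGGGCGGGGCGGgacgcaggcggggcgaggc

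Of the 8 windows, the one of Stat2 was alone in holding the core of the interferon-stimulated response element, which occurred in 2.98% of all 32851 promoters of that length. It started 222 bases before the start. A TTCNNNNGAA match started 210 bases before the start of Stat2 and 91 bases before the start of Ifngr2, and 5.85% of promoters held one. No member held TTCNNNGAA, which 7.02% of promoters held. At least 1 GC box lay in the windows of all members but Stat6, against 32.7% of promoters. The Ifngr2 window held 4. These matches are a description of letters in a short window and say nothing of what binds there.

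Ifngr1, the ligand-binding chain, lies on chromosome 10 (19591949 to 19610229, GRCm38.p6). Its FPKM was 41.8, 46.1 and 44.6 in the siR_Ctrl libraries and 41.8, 41.8 and 37.6 in siR_Ctrl + IFN-γ libraries. It was 44.5, 45.3 and 45.1 in siR_Nostrill cells and 34.5, 38.2 and 42.0 in siR_Nostrill + IFN-γ cells. The 3 siR_Nostrill + IFN-γ libraries were all below the 3 siR_Nostrill libraries. The share of all genes that were lower in this way is not given here, so no result was read from it. Without the Nostrill siRNA, the groups with and without IFN-γ met at their edges. The log2 fold change with IFN-γ was -0.25 (standard error 0.11, unadjusted p = 0.0459, adjusted p = 0.22) in siR_Nostrill cells and -0.058 (standard error 0.11) in siR_Ctrl cells in edgeR's quasi-likelihood test, so Ifngr1 was not called in either. In RNA from whole cultures, a change in the share of cells that express a gene and a change in RNA per cell cannot be told apart.

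Ifngr2, the second chain (chromosome 16, 91547059 to 91564007), was the one member whose levels did not overlap between the siRNAs either with or without IFN-γ. Its FPKM was 36.2, 31.7 and 34.0 in siR_Ctrl libraries and 33.9, 33.2 and 33.4 in siR_Ctrl + IFN-γ libraries. It was 48.2, 41.6 and 40.8 in siR_Nostrill libraries and 51.3, 52.9 and 48.5 in siR_Nostrill + IFN-γ libraries. All 6 libraries with the Nostrill siRNA were above all 6 with the control siRNA. Group means were 33.9 ± 2.25 and 43.6 ± 4.08 without IFN-γ, and 33.5 ± 0.389 and 50.9 ± 2.22 with it (SD, n = 3 each). With IFN-γ, the log2 fold change between the siRNAs was 0.54 (standard error 0.09), or 1.46-fold, and it passed the threshold of 0.05 (adjusted p = 0.0375 in edgeR, by the Benjamini-Hochberg method over 11900 genes). Without IFN-γ it was 0.39 (standard error 0.09, unadjusted p = 0.00129), with an adjusted p of 0.15 in edgeR, so it was not called there, while DESeq2 called it (adjusted p = 0.00521). The difference between both effects of the siRNA on Ifngr2 was 0.15 with a standard error of 0.13 (adjusted p = 0.514 for the interaction in edgeR, and 0.068 to 0.24 with single libraries left out, lowest without siR_Nostrill replicate 3 and highest without siR_Nostrill replicate 1), so the effect was not shown to differ with IFN-γ. Of all genes tested, 3.27% were higher with the Nostrill siRNA and did not overlap in both of these comparisons. The share in either direction, and the share with all 6 libraries above all 6, are not given here.

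The call with IFN-γ depended on the libraries in the fit. Fitting only those 6 libraries gave the same log2 fold change of 0.54 with an adjusted p of 0.157 in edgeR, and a fit with the replicate number as a block gave 0.54 with an adjusted p of 0.0503. When each of the 12 libraries was left out in turn, the fold change stayed between 0.51 and 0.58, but the call held in 3 of the 12 fits, those without siR_Ctrl replicate 1, siR_Nostrill replicate 1 or siR_Nostrill replicate 3. The adjusted p ranged from 0.021 to 0.175 over these edgeR fits. With the length trend removed, Ifngr2 was also called for IFN-γ in siR_Nostrill cells (log2 fold change 0.29, adjusted p = 0.0249 in edgeR, against 0.20 and 0.231 with the trend left in).

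Both receptor genes have nearly the same effective length (1875 nt for Ifngr1 and 1869 nt for Ifngr2), so their ratio within a library is little affected by spread with length. The ratio of Ifngr2 to Ifngr1 FPKM was 0.865, 0.687 and 0.762 in siR_Ctrl cells and 0.811, 0.794 and 0.888 in siR_Ctrl + IFN-γ cells. It was 1.08, 0.919 and 0.904 in siR_Nostrill cells and 1.49, 1.38 and 1.15 in siR_Nostrill + IFN-γ cells. Ifngr1 thus exceeded Ifngr2 in all 6 control-siRNA libraries and in 2 of 3 siR_Nostrill libraries, and Ifngr2 exceeded Ifngr1 in all 3 siR_Nostrill + IFN-γ libraries. As a share of both receptor mRNAs, Ifngr2 made up 43.5% ± 2.84, 45.4% ± 1.47, 49.1% ± 2.52 and 57.1% ± 3.20 in these groups in turn (SD, n = 3 each). The ratio was chosen with the values known and was not tested.

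**Figure D1:**
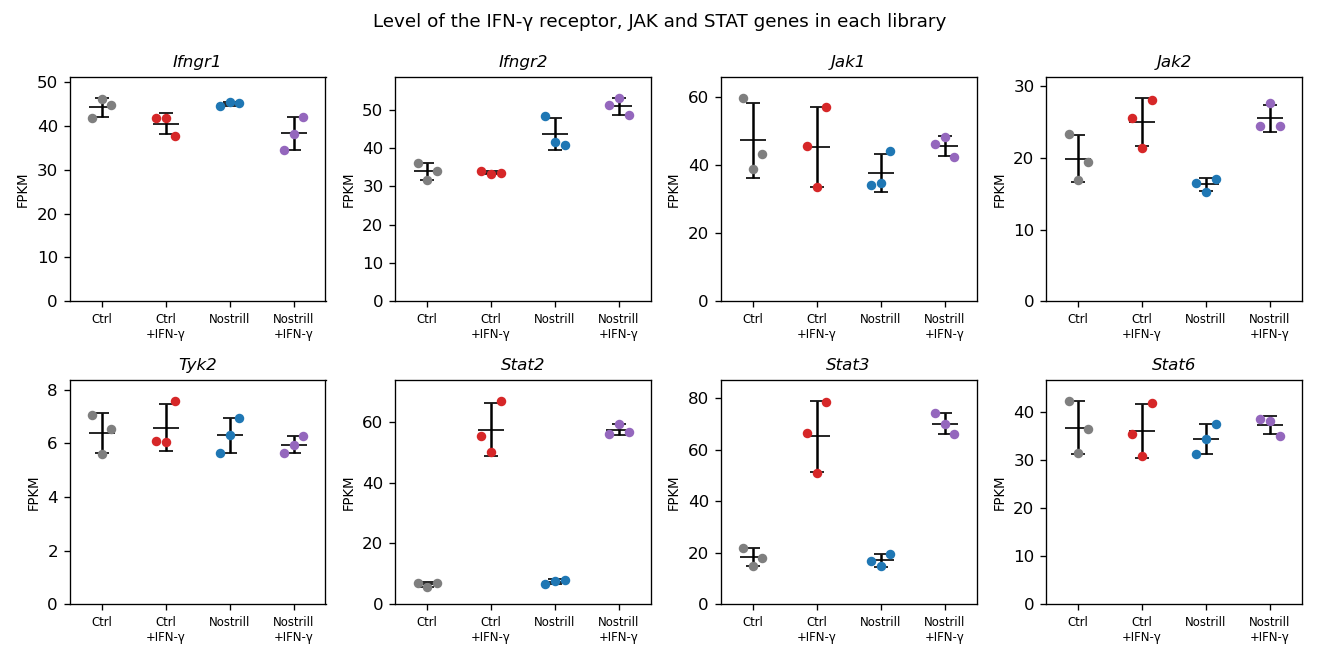
Deposited FPKM (vertical axis, from 0) of each of the 8 genes in the 4 groups on the horizontal axis. Points are single libraries, the black mark is the group mean and the bar its SD (n = 3). Stat2 and Stat3 stand far higher in both IFN-γ groups, and the Ifngr2 points of both siR_Nostrill groups (40.8 to 52.9) lie above those of both siR_Ctrl groups (31.7 to 36.2).

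Jak1, the kinase of the Ifngr1 chain (chromosome 4, 101151974 to 101265282), was among the most abundant members, and in all groups but siR_Nostrill + IFN-γ it had the largest SD of the members relative to its mean. Its FPKM was 59.7, 38.8 and 43.1 in siR_Ctrl cells and 45.4, 33.5 and 56.8 in siR_Ctrl + IFN-γ cells. It was 34.0, 34.7 and 44.0 in siR_Nostrill cells and 46.1, 48.2 and 42.4 in siR_Nostrill + IFN-γ cells. All 4 groups overlapped in range. The standard error of its log2 fold change was 0.18, against 0.09 for Ifngr2, and Jak1 was not called in any comparison. Its largest difference was -0.34 between siR_Nostrill and siR_Ctrl cells without IFN-γ (adjusted p = 0.388, edgeR), and it shrank to -0.14 without siR_Ctrl replicate 1.

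Jak2, the kinase of the Ifngr2 chain (chromosome 19, 29251803 to 29313095), was the only member kinase called for IFN-γ, and only in siR_Nostrill cells. Its FPKM was 23.3, 16.9 and 19.4 in siR_Ctrl cells and 25.6, 21.4 and 28.1 in siR_Ctrl + IFN-γ cells. It was 16.5, 15.3 and 17.1 in siR_Nostrill cells and 24.5, 27.7 and 24.4 in siR_Nostrill + IFN-γ cells. The groups did not overlap with the Nostrill siRNA, and with the control siRNA siR_Ctrl replicate 1 was above the lowest IFN-γ library. How large a share of all genes did not overlap with the Nostrill siRNA alone is not given here, so no result was read from it. In siR_Nostrill cells the log2 fold change with IFN-γ was 0.64 (standard error 0.13), or 1.56-fold, and Jak2 was called (adjusted p = 0.0104 in edgeR). In siR_Ctrl cells it was 0.38 (standard error 0.13, unadjusted p = 0.0121, adjusted p = 0.15), and it was not called. This does not show that the siRNA changed the response of Jak2, because the difference between both responses was 0.26 with a standard error of 0.18 (adjusted p = 0.454 for the interaction in edgeR). With single libraries left out it ran from 0.12, without siR_Ctrl replicate 1, to 0.36, without siR_Ctrl + IFN-γ replicate 3, and was not called in any of the 12 fits.

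The Jak2 calls moved with single libraries and with the length trend. In siR_Nostrill cells the call was lost without siR_Nostrill replicate 2 (log2 fold change 0.59, adjusted p = 0.0663 in edgeR) and without siR_Nostrill + IFN-γ replicate 2 (0.58, adjusted p = 0.0564). In siR_Ctrl cells Jak2 was called without siR_Ctrl replicate 1 (0.52, adjusted p = 0.0267 in edgeR). It was also called there once the length trend was removed (0.47, adjusted p = 1.20e-04). Jak2 and Jak1 are of similar effective length (4317 and 4781 nt), and their FPKM ratio was 0.391 to 0.450 in siR_Ctrl and 0.388 to 0.485 in siR_Nostrill libraries. With IFN-γ it was 0.496 to 0.638 and 0.532 to 0.576, so in both siRNAs the ratios with and without IFN-γ did not overlap. This ratio was not tested. How often other pairs of genes separate in this way is not given here, so no result was read from it.

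Tyk2, a kinase of type I interferon and interleukin receptors (chromosome 9, 21104068 to 21131393), was the least abundant of the 3 member kinases. Its FPKM was 7.05, 5.60 and 6.53 in siR_Ctrl cells, 6.10, 6.06 and 7.59 in siR_Ctrl + IFN-γ cells, 5.64, 6.32 and 6.94 in siR_Nostrill cells, and 5.64, 5.92 and 6.28 in siR_Nostrill + IFN-γ cells. The groups overlapped throughout. Its log2 fold changes ran from -0.18 (siR_Nostrill with IFN-γ) to 0.082 (IFN-γ in siR_Ctrl cells), each with a standard error of 0.12, and Tyk2 was not called. Among the 3 kinases, Jak1 made up 58.4% to 64.0% of the summed FPKM by group mean, Jak2 27.2% to 33.1% and Tyk2 7.74% to 10.5%.

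Stat2 (chromosome 10, 128270498 to 128292853) had the largest change of the members. Its FPKM was 6.91, 5.77 and 7.13 in siR_Ctrl cells and rose to 55.4, 49.9 and 66.9 in siR_Ctrl + IFN-γ cells. It was 6.65, 7.69 and 8.15 in siR_Nostrill cells and 56.0, 59.3 and 56.7 in siR_Nostrill + IFN-γ cells. All 6 IFN-γ libraries were far above all 6 others. Groups that did not overlap and were higher with IFN-γ in both siRNAs were found for 5.07% of all genes. The log2 fold change with IFN-γ was 3.18 (standard error 0.11, adjusted p = 3.11e-09), or 9.09-fold, in siR_Ctrl cells. In siR_Nostrill cells it was 2.91 (standard error 0.10, adjusted p = 6.19e-09), or 7.54-fold, both in edgeR's quasi-likelihood test. The interaction was -0.27 (standard error 0.14, unadjusted p = 0.0769, adjusted p = 0.43). With the length trend removed under the replicate block, it was -0.46 and was called (adjusted p = 0.036 in edgeR). That fit also called Stat2 between the siRNAs without IFN-γ (log2 fold change 0.35, adjusted p = 0.0172). Apof, whose span overlaps the start of Stat2, had 1 to 33 counts against 448 to 5322 for Stat2.

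Stat3 (chromosome 11, 100886806 to 100939594) rose less than Stat2 on the log2 scale but reached the highest level of the members. Its FPKM was 21.9, 14.9 and 18 in siR_Ctrl cells and 66.3, 50.9 and 78.5 in siR_Ctrl + IFN-γ cells. It was 16.9, 14.7 and 19.7 in siR_Nostrill cells and 74.0, 70.0 and 66.0 in siR_Nostrill + IFN-γ cells. The lowest library with IFN-γ was well above the highest without it. The log2 fold change with IFN-γ was 1.90 (standard error 0.14, adjusted p = 2.74e-06) in siR_Ctrl cells and 2.01 (standard error 0.14, adjusted p = 1.77e-06) in siR_Nostrill cells in edgeR, or 3.73-fold and 4.04-fold. Between the siRNAs, the log2 fold change of Stat3 was -0.065 without and 0.049 with IFN-γ (standard error 0.14 each), and neither was called.

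Stat6, which serves interleukin-4 and interleukin-13 (chromosome 10, 127642955 to 127660987), had overlapping levels in all groups. Its FPKM was 42.4, 31.6 and 36.4 in siR_Ctrl cells, 35.5, 30.8 and 42.0 in siR_Ctrl + IFN-γ cells, 31.3, 34.4 and 37.6 in siR_Nostrill cells, and 38.5, 38.1 and 35.1 in siR_Nostrill + IFN-γ cells. The ranges overlapped in all 4 comparisons. The log2 fold changes of Stat6 lay between -0.066 and 0.094 with a standard error of 0.10, and it was not called. The neighbouring gene Nab2, with 2121 to 2792 counts, overlaps the end of Stat6, and whether reads were counted by strand was not stated.

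The make-up of the STAT members changed with IFN-γ. Stat6 supplied 59.7% ± 0.676 of their summed FPKM in siR_Ctrl cells and 22.8% ± 0.531 in siR_Ctrl + IFN-γ cells (SD, n = 3 each). Over the same groups Stat2 went from 10.8% ± 0.965 to 36.3% ± 1.43 and Stat3 from 29.5% ± 1.11 to 40.9% ± 1.94. With the Nostrill siRNA, Stat6 went from 58.3% ± 1.90 to 22.6% ± 0.318, Stat2 from 12.7% ± 0.749 to 34.9% ± 1.44 and Stat3 from 29.0% ± 2.64 to 42.5% ± 1.21. In each group the SD of the Stat6 share was a smaller part of its mean than the SD of the Stat6 FPKM was of its own mean.

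**Figure D2:**
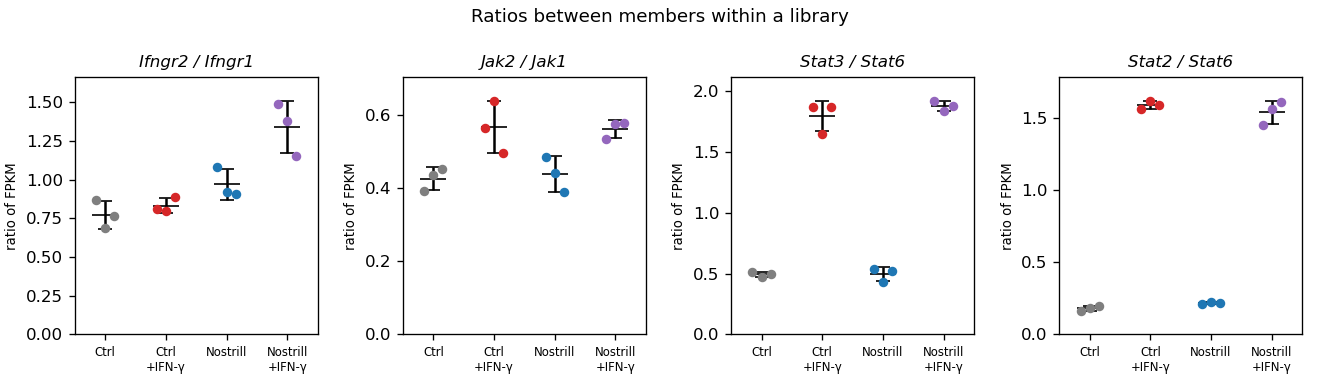
Ratio of the FPKM of 2 members within a library (vertical axis, from 0) in the 4 groups. Points are libraries, the black mark is the mean and the bar the SD (n = 3). The ratio of Ifngr2 to Ifngr1 is highest in siR_Nostrill + IFN-γ cells (1.15 to 1.49), and the ratios of Stat3 and Stat2 to Stat6 separate the IFN-γ groups from the others (Stat3 to Stat6 at 1.65 to 1.92 against 0.428 to 0.540).

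The order of the levels differed between resting and IFN-γ-treated cells. In siR_Ctrl cells it ran from Jak1 (47.2 FPKM on average) through Ifngr1 (44.2), Stat6 (36.8), Ifngr2 (33.9), Jak2 (19.9), Stat3 (18.3) and Stat2 (6.60) to Tyk2 (6.39). Neighbours in this order did not overlap in range between Ifngr2 and Jak2 or between Stat3 and Stat2, and the other neighbours overlapped. Jak1, Ifngr1, Stat6 and Ifngr2 thus formed an upper tier, Jak2 and Stat3 a middle tier and Stat2 and Tyk2 a lower one. In siR_Ctrl + IFN-γ cells Stat3 (65.2) and Stat2 (57.4) moved to the front, although their ranges overlapped each other and Stat2 overlapped Jak1 (45.2). In siR_Nostrill + IFN-γ cells the order was Stat3 (70.0), Stat2 (57.3), Ifngr2 (50.9), Jak1 (45.6), Ifngr1 (38.3), Stat6 (37.3), Jak2 (25.5) and Tyk2 (5.95), and Ifngr1 and Stat6 were the one pair of neighbours that overlapped. In siR_Nostrill cells it began with Ifngr1 (45.0) and Ifngr2 (43.6), which overlapped. The order was the same by TPM, although Ifngr2 then also overlapped Jak1 in siR_Nostrill + IFN-γ cells and Jak2 in siR_Ctrl + IFN-γ cells.

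Counted together, 2 of the 8 members were called for IFN-γ in siR_Ctrl cells, where 5.45% of all genes tested were, and 3 of 8 in siR_Nostrill cells, where 6.78% were. All of these were higher with IFN-γ. Stat2 and Stat3 were called in both, as were 3.85% of all genes. The median log2 fold change of the 8 members was 0.067 in siR_Ctrl and 0.244 in siR_Nostrill cells, against -0.009 and -0.001 over all genes, and 5 of the 8 were not called in either siRNA. Between the siRNAs, 0 of 8 members were called without IFN-γ in edgeR (2 had an unadjusted p under 0.05, Ifngr2 and Jak2, as 13.8% of all genes had), where 0.218% of all genes were called, and DESeq2 called 1. With IFN-γ, 1 of 8 was called, where 0.429% of all genes were. For the interaction 0 of 8 were called (0 with an unadjusted p under 0.05, as 10.7% of all genes had, and 0 by DESeq2), and 0.0% of all genes were. With the length trend removed under the replicate block, 1 member was called for the interaction, where 248 of all genes were. Between the siRNAs that fit called 2 members without IFN-γ (556 of all genes) and 2 with it (1893 of all genes).

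**Figure D3:**
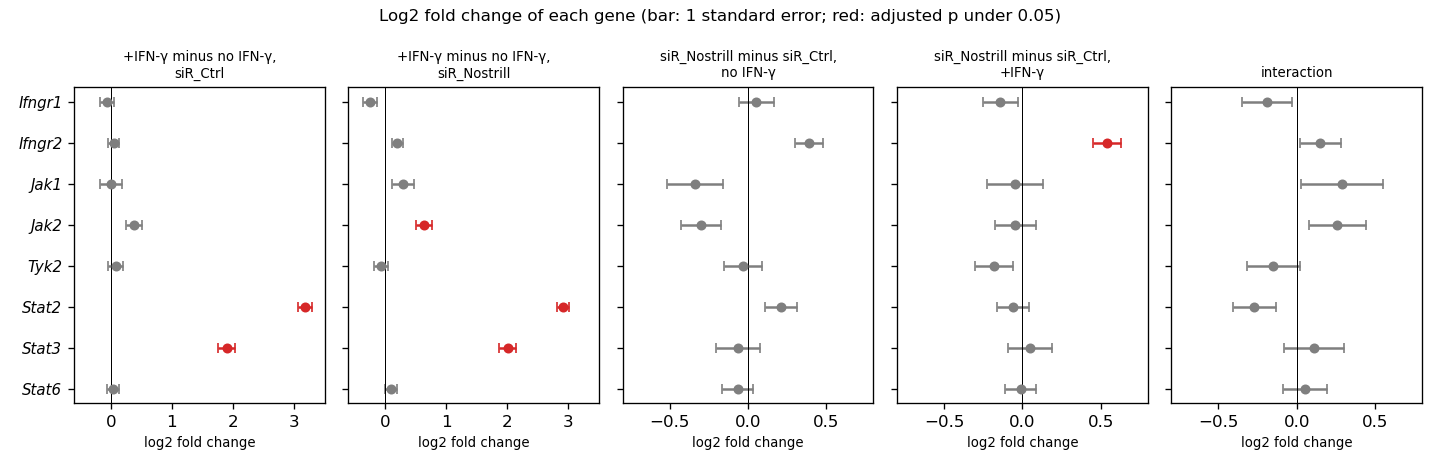
Log2 fold change of each member (horizontal axis) in the 5 comparisons, with a bar of 1 standard error from edgeR, and red for an adjusted p under 0.05. The 2 panels on the left use a wider axis. Stat2 and Stat3 lie near 3 and 2 in both IFN-γ panels, Jak2 is red with the Nostrill siRNA, and Ifngr2 is red between the siRNAs with IFN-γ.

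The genes whose profile over the 12 libraries was most like that of a responding member were found by the root mean square difference of centred log2 CPM (counts scaled for library size), among 10696 other genes. For Stat2 they were Parp9 (0.09), LOC102641031 (0.20) and Socs1 (0.21). Parp9, an ADP-ribosyltransferase family gene, went from 5.39 to 44.2 FPKM with IFN-γ in siR_Ctrl cells and from 6.20 to 47.6 in siR_Nostrill cells. For Stat3 they were the sorting nexin gene Snx10 (0.13), Cish (0.13) and the complement gene C1s1 (0.15), and Snx10 went from 12.7 to 44.6 FPKM in siR_Ctrl cells. For Jak2 they were Rnd3 (0.06), Aebp2 (0.07) and Rap1gds1 (0.07). Rap1gds1 had 36.5 FPKM without and 48.1 with IFN-γ in siR_Ctrl cells and 32.1 and 51.8 in siR_Nostrill cells.

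The 4 lists of other pathway genes hold 52 genes reported here, of which 47 were listed and 45 tested. With IFN-γ, 15 of the 45 were higher in siR_Ctrl cells and 16 in siR_Nostrill cells, and 0 were lower in either, where 5.45% and 6.78% of all genes tested were called in either direction. Their median log2 fold change was 0.10 in siR_Ctrl and 0.34 in siR_Nostrill cells. Between the siRNAs 1 of 45 was higher without IFN-γ and 0 with it, and 0 were lower, where 0.218% and 0.429% of all genes were called.

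Of the 3 other JAK and STAT genes reported, 1 rose with IFN-γ in both siRNAs, where 3.85% of all genes were called in both. Jak3, the kinase of the common γ chain, went from 1.92 ± 0.280 to 3.03 ± 0.598 FPKM in siR_Ctrl cells, a log2 fold change of 0.73 (adjusted p = 0.0126 in edgeR), with 0.79 in siR_Nostrill cells. The siR_Ctrl call of Jak3 was lost without siR_Ctrl replicate 2 (adjusted p = 0.0602) or siR_Ctrl + IFN-γ replicate 3 (adjusted p = 0.0521 in edgeR), in the fit of only the groups compared and in the limma fits. Stat5a (0.25 and 0.28) and Stat5b (-0.05 and 0.09) were not called.

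The receptor list holds chains of other cytokines that use these kinases. Of 15 tested, 6 rose with IFN-γ in siR_Ctrl cells and 6 in siR_Nostrill cells, against the 5.45% and 6.78% of all genes called in either direction. Il15ra, the interleukin-15 receptor α chain, went from 0.297 ± 0.106 to 3.26 ± 0.212 FPKM in siR_Ctrl cells (log2 fold change 3.45, SD, n = 3 each). Its level without IFN-γ was low, and the size of the change moved with the scale. There limma gave 1.72 on log2(FPKM + 1) and 3.11 on log2(FPKM + 0.1), and called Il15ra in both. Osmr, the oncostatin M receptor, had a log2 fold change of 1.78 in siR_Ctrl and 1.83 in siR_Nostrill cells.

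Of 18 genes that restrain the relay, 4 rose in siR_Ctrl cells, where 5.45% of all genes were called in either direction, and 5 in siR_Nostrill cells, where 6.78% were. Usp18, which holds back type I interferon signalling at its receptor, had a log2 fold change of 3.81 in siR_Ctrl and 3.07 in siR_Nostrill cells. Socs1, a direct inhibitor of JAK kinases, went from 11.7 ± 1.37 to 91.0 ± 7.68 FPKM in siR_Ctrl cells and from 12 ± 0.622 to 93.1 ± 15.4 in siR_Nostrill cells (SD, n = 3 each). Its profile was also among the nearest to that of Stat2.

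Of 9 partners and early targets tested, 4 rose in both siRNAs, where 3.85% of all genes were called in both. Irf1, an early target of IFN-γ, had a log2 fold change of 3.57 in siR_Ctrl and 3.23 in siR_Nostrill cells. Irf9, the DNA-binding partner of Stat2, went from 6.16 ± 0.499 to 29.5 ± 1.14 FPKM in siR_Ctrl cells and from 9.14 ± 1.09 to 32.0 ± 0.685 in siR_Nostrill cells (SD, n = 3 each). Irf9 was the 1 gene of the lists that was called between the siRNAs. Without IFN-γ it was higher in siR_Nostrill cells by 0.58 on the log2 scale (standard error 0.09, adjusted p = 0.0357 in edgeR), and with IFN-γ the difference was 0.04 (adjusted p = 0.856). The interaction of Irf9 was -0.54 (unadjusted p = 0.00118, adjusted p = 0.43). The call without IFN-γ was lost in 10 of the 12 edgeR fits that left out 1 library (log2 fold change 0.52 to 0.67, adjusted p 0.0369 to 0.175), and held only without siR_Ctrl + IFN-γ replicate 2 or 3. It was also lost under the replicate block (adjusted p = 0.064), in the edgeR fit of only the groups compared (adjusted p = 0.462) and in the limma fits on log2 FPKM. DESeq2 called it.

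**Figure D4:**
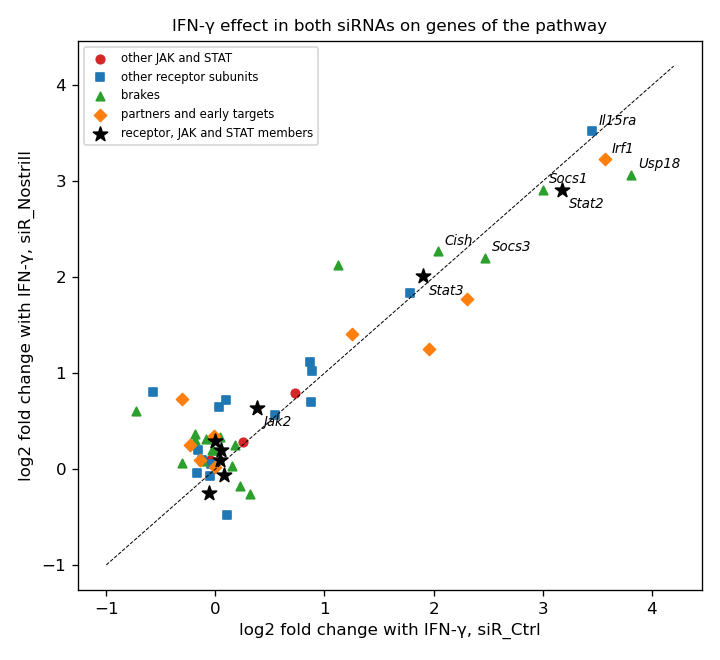
Log2 fold change with IFN-γ in siR_Ctrl cells (horizontal axis) and in siR_Nostrill cells (vertical axis) for the 45 tested genes of the 4 lists and the 8 members (stars). The dashed line marks equal changes. Stat3 at 1.90 and 2.01 and Il15ra at 3.45 and 3.52 lie close to it, and most members sit near 0 on both axes.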

How the data were processed

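The 8 members and the lists of other pathway genes were chosen with earlier results of these data known. Named beyond the members were, for each member called for IFN-γ, the 3 genes with the most similar profile and an average log2 CPM above 1, and in each list the 2 called genes with the largest change, with Jak3, Stat5a and Stat5b. One listed gene is not reported here and was left out of the counts of its list. The estimated count of each gene and library was deposited by the authors without normalization. The FPKM that the authors deposited is scaled by length and depth, and the deposited TPM by a common total as well. Before deposit, SOAPnuke had filtered the paired reads of 100 bases, HISAT2 and Bowtie2 had aligned them to GRCm38.p6, and GATK had removed unreliable sites. No source used here names the counter. Effective length was taken from the ratio of count to FPKM.

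The estimated counts were whole for 90.6% to 91.6% of genes and were rounded. edgeR 4.0.16 in R 4.3.3 fitted the 12 libraries together (quasi-likelihood test, TMM, its default filter, Benjamini-Hochberg adjustment over 11900 genes, threshold 0.05). In this test a p-value sets the difference between groups against the spread between libraries. Levels and ratios were described from FPKM without a test. Alternatives were DESeq2 1.42.0, DESeq2 size factors within edgeR, no filter, a filter at a mean CPM of 5, a fit of the compared groups alone, a replicate block, and removal of the length trend per library (lowess, span 0.3) with or without that block. limma 3.58.1 was run on log2(FPKM + 1) and log2(FPKM + 0.1) above a mean FPKM of 0.5, and on all genes. TPM replaced FPKM for the order and shares, and each library was left out in turn.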

Additional observations from a re-analysis of the deposited data

How the results depend on the processing

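Stat2 and Stat3 were called for IFN-γ in both siRNAs under all alternatives run, each library left out included. The call of Jak2 for IFN-γ in siR_Nostrill cells held in all but the leave-one-out fits named above. Ifngr2 between the siRNAs with IFN-γ lost its call in the edgeR fit of only the groups compared (0 members called, adjusted p = 0.157) and under the replicate block (0 members called, adjusted p = 0.0503). With the length trend removed together with the replicate block, 2 members were called there, Ifngr2 and Tyk2 (-0.23, adjusted p = 0.0465 in edgeR). In the same fit 2 were called without IFN-γ, Ifngr2 (0.29, adjusted p = 0.0386) and Stat2 (0.35, adjusted p = 0.0172), against 1 with DESeq2, and 1 for the interaction, Stat2 (-0.46, adjusted p = 0.036 in edgeR). The methods name no pairing, and the replicate numbers were not taken as pairs. The correlation of the deviations of same-numbered libraries ran from -0.495 to 0.725 and exceeded 0.1 in 0, 1 or 2 of 3 pairs. Differently numbered libraries reached -0.812 and 0.769, so these correlations cannot decide whether the libraries were paired. The replicate block changed no other call of a member. With single libraries left out, 2 to 3 members were called for IFN-γ in siR_Ctrl and 2 to 3 in siR_Nostrill cells, 0 to 1 between the siRNAs with IFN-γ, and 0 in each fit without IFN-γ and for the interaction.

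The number of all genes called moved more. For IFN-γ in siR_Ctrl cells it was 649, with 1321 once the length trend was removed, 1428 with the block in addition and 341 in only the groups compared. In siR_Nostrill cells it was 807, with 1330 in DESeq2 and 2258, 2666 and 1997 in those fits. Between the siRNAs it was 26 without IFN-γ (265, 404, 556 and 0 in the same order, and 17 in limma over all genes). With IFN-γ it was 51 (596, 1538, 1893 and 0, with 30 without a filter, 105 at a mean of at least 5 CPM, 32 under the block and 135, 114 and 118 in the 3 limma fits). For the interaction it was 0, or 248 with the length trend removed under the block. With single libraries left out, these counts ran from 489 to 589 and from 491 to 1138 for IFN-γ in siR_Ctrl and siR_Nostrill cells, and from 0 to 37 and from 0 to 72 between the siRNAs without and with IFN-γ. The count without IFN-γ was 0 without siR_Ctrl replicate 1, any siR_Nostrill replicate or siR_Nostrill + IFN-γ replicate 2, and the count with IFN-γ was 0 without siR_Nostrill + IFN-γ replicate 1 or 3. Of the other pathway genes, 1 was called between the siRNAs without IFN-γ (4 in DESeq2, 2 with the length trend removed, 3 with the block in addition, 0 under the block alone, in limma and in only the groups compared) and 0 with IFN-γ (2, 6 and 7 in the first of these, and 1 under the block, in limma and at a mean of at least 5 CPM). For the interaction 3 were called with the length trend removed under the block.

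A sign changed only in comparisons in which that member was not called. With the control siRNA, the IFN-γ effect on Ifngr2 was -0.016, -0.017 and -0.016 and Stat6 -0.029 in the 3 limma fits. Jak1, at -0.001, was 0.005 without a filter and in only the groups compared, 0.008 at a mean of at least 5 CPM, and 0.096 or 0.093 with the length trend removed without or with the block. Between the siRNAs without IFN-γ, removing the length trend gave -0.035 for Ifngr1, 0.12 for Tyk2, 0.091 for Stat3 (0.09 with the block) and 0.029 for Stat6 (0.028 with the block). With IFN-γ, the limma fits gave 0.041 or 0.042 for Jak1, 0.033 or 0.034 for Jak2, 0.008 or 0.009 for Stat2 and 0.054 or 0.056 for Stat6. For the interaction, removing the trend gave -0.087 for Stat3 (-0.085 with the block) and -0.075 for Stat6 (-0.074 with the block). With single libraries left out, the log2 fold change with IFN-γ in siR_Ctrl cells ran from -0.13 to 0.023 for Ifngr1, -0.17 to 0.19 for Jak1, -0.033 to 0.15 for Tyk2 and -0.046 to 0.12 for Stat6, and in siR_Nostrill cells from -0.15 to 0.001 for Tyk2. Between the siRNAs without IFN-γ it ran from -0.012 to 0.12 for Ifngr1, -0.098 to 0.055 for Tyk2, -0.16 to 0.054 for Stat3 and -0.13 to 0.02 for Stat6. With IFN-γ it ran from -0.21 to 0.12 for Jak1, -0.14 to 0.061 for Jak2, -0.11 to 0.027 for Stat2, -0.066 to 0.17 for Stat3 and -0.073 to 0.074 for Stat6. For the interaction it ran from -0.008 to 0.23 for Stat3 and -0.031 to 0.14 for Stat6. The cause of these changes was not tested. With TPM in place of FPKM, no place in the order of group means changed. TPM rescales all genes of a library by the same factor. The order and the shares within a library are therefore the same in both units, and TPM was no check on them.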
